A study of Mus musculus with 84 samples.

Results

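Slk encodes a serine/threonine kinase of the Ste20 family, and it is described here with 8 other genes of that family: Stk10 (LOK), its closest relative, Stk3 and Stk4 (MST2 and MST1), Stk24 and Stk25 (MST3 and SOK1), and Map4k4, Tnik and Mink1. These 9 genes are among the 55401 gene IDs counted. The group was chosen by its first gene: Slk had the smallest p over the 4 groups of mice, so its own values are given as a description with no test, and tests are given only for the other 8 genes. All 9 genes passed the filter on low counts, which kept 17941 genes.

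The RNA came from NeuN-positive nuclei, that is nuclei carrying a neuronal marker protein, sorted from frontal cortex anterior to bregma +1 mm of 129S6/SvEvTac mice aged 12 weeks. One group received vehicle, and the other 3 received DOI (2,5-dimethoxy-4-iodoamphetamine), a psychedelic agonist of the serotonin 2A receptor, and were sampled after 24 h, 48 h or 7 days; the labels give no dose and no genetic change in any group. Each group had 4 mice with 2 libraries each, 16 mice and 32 libraries in all, and the mouse was the replicate; the series' design text speaks of 6 mice per group. The labels give the vehicle group no time point, and all 3 DOI groups were compared with the same vehicle mice.

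Ste20 kinases are named after a yeast kinase that starts a MAP kinase cascade. SLK and STK10 phosphorylate the ezrin, radixin and moesin proteins that tie actin to the plasma membrane. STK3 and STK4 are the mammalian Hippo kinases, which with the adaptor SAV1 activate LATS1 and LATS2 and so keep the coactivators YAP1 and TAZ out of the nucleus. STK24 and STK25 bind MO25 and the STRIPAK phosphatase complex and act on neuronal migration and polarity, and MAP4K4, TNIK and MINK1 signal to JNK, with TNIK known at the postsynaptic density as a partner of RAP2.

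Vehicle mice had 9151680 to 11517452 counts each. The DOI mice had 6441396 to 8090559 counts after 24 h, 5834248 to 7344355 after 48 h and 6972577 to 12354785 after 7 days. Values below are CPM, counts scaled by library size with TMM factors. Markers of the sorted cells were present in every mouse: the 10 neuronal genes summed to 6933 to 7334 CPM in vehicle mice and to 5411 to 9436 CPM after DOI. Of these 10 genes, 3 rose and 3 fell at 24 h (60.0%, beside 24.2% of all genes), and 4 rose and 2 fell at 48 h (60.0%, beside 30.1%). Other cell types were not at 0. The 8 astrocyte genes summed to 808.2 to 876.2 CPM in vehicle mice and 907.8 to 1238 CPM in the 24 h mice, with no overlap. Their sums were 743.1 to 1221 CPM in the 48 h mice and 588 to 908.6 CPM in the 7 days mice. Slc1a2 alone held 306.7 to 922.1 CPM of these sums over all mice. The 7 astrocyte genes tested had median log2 fold changes of -0.27, -0.23 and -0.12 by time, and 0 passed at 24 h. The 8 oligodendrocyte genes summed to 187.4 to 445 CPM in vehicle mice and, in the DOI groups by time, to 181.8 to 287.4, 222.8 to 276.4 and 250.3 to 434.4 CPM, with median log2 fold changes of -0.72, -0.64 and -0.16. The 8 microglial genes summed to 154.9 to 186.4 CPM in vehicle mice and to 85.2 to 176.9, 108.2 to 158.7 and 92.2 to 221 CPM in the DOI groups, with medians of -0.50, -0.44 and -0.09. The 6 endothelial genes summed to 1.79 to 4.21 CPM in vehicle mice and 1.01 to 18.1 CPM after DOI. Of the genes tested in these 4 lists, 1 endothelial gene of 3 rose and 1 oligodendrocyte gene of 8 fell at 24 h (33.3% and 12.5%). At 48 h 1 astrocyte gene of 7 rose and 1 oligodendrocyte gene of 8 fell (14.3% and 12.5%). The 6 oligodendrocyte precursor genes summed to 13.9 to 35.6 CPM in vehicle mice and 16.1 to 31.6 CPM after DOI. Of the 5 tested, 1 rose at 24 h (20.0%, beside 24.2% of all genes). At 48 h 1 of them rose and 1 fell (40.0%, beside 30.1%). Gfap was at 0 in 7 mice and Cldn5 in 10. The 8 genes of striatal neurons summed to 348 to 385 CPM in vehicle mice, and after DOI to 248.7 to 319 CPM (24 h), 309 to 656 CPM (48 h) and 418 to 1807 CPM (7 days). Of the 7 striatal genes tested, 2 fell at 24 h (28.6%), 1 rose at 48 h (14.3%) and 0 passed at 7 days. Their median log2 fold changes were -0.323, 0.485 and 1.63 by time. The part of these cell types and of depth in the results was not tested. The 7 days mice stood apart from each other: mice 2 and 4 resembled the 24 h and 48 h mice, and mice 1 and 3 the vehicle mice, in counts on the ribosomal RNA feature CT010467.1, whose values are given beside the 7 days results. In bulk RNA, fewer cells of a type and less RNA per cell cannot be told apart.

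In vehicle mice the 9 genes spanned a wide range of levels per kilobase of exon. Stk25 was highest at 82.4 CPM per kb ± 7.07 (SD, n = 4), followed by Slk at 20.1 ± 0.839, Stk4 at 13.6 ± 0.744 and Tnik at 13.1 ± 1.74. Map4k4 was at 1.63 CPM per kb ± 0.146, Stk3 at 1.35 ± 0.499, Stk10 at 1.05 ± 0.274, Mink1 at 0.757 ± 0.0985 and Stk24 at 0.568 ± 0.0557. The vehicle mice of Stk4 and Tnik overlapped, as did those of each neighbouring pair from Map4k4 to Mink1, while the other neighbours in this order did not overlap.

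Promoter windows were given by RefSeq (GRCm38.p6) for 5 of the 9 genes, and are shown for Slk, Stk4 and Stk25, whose mice all lay below the vehicle mice at 24 h and at 48 h. The 250 bases before the RefSeq start were searched on both strands for GGGCGG (GC box), CACGTG (E box), TGACG (a cAMP response element core) and CCGGAAG (ETS). No match overlapped another. The GC box was in all 5 windows and in 32.7% of 32851 windows, the E box in Stk4 alone of the 5 (6.02% of windows), TGACG in Stk25 and Mink1 (17.8%) and the ETS motif in Stk4 (6.91%). GC content was 84.4% in Slk, 75.6% in Stk10, 68.0% in Mink1, 62.4% in Stk25 and 60.0% in Stk4, beside a median of 52.4% over all windows. For Slk and Stk25 the window is exonic in the Ensembl gene models and only 30 bases around a match are shown; the Stk4 window is free of exons and lies within the Ensembl gene. Capitals mark the matches. The sequences printed are chr19:47579833-47579862 for Slk, chr1:93635932-93635961 (minus strand) for Stk25 and, as the whole window, chr2:164073888-164074137 for Stk4.
Slk: ccggagcggccgCCGCCCcgggagacgcgc
Stk25: acgcgctgcaccCGTCAccgcgcggcctga
Stk4: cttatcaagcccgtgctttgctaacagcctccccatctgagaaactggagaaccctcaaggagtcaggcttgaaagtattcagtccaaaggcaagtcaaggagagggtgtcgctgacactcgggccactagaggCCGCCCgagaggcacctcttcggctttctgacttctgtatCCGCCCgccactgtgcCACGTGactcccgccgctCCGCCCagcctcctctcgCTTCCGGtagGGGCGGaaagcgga
The E box of Stk4 is followed by a GC box, an ETS match and another GC box. The Slk stretch carries a GC box, and the Stk25 stretch TGACG, each on the strand opposite to the one printed.

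**Figure D1:**
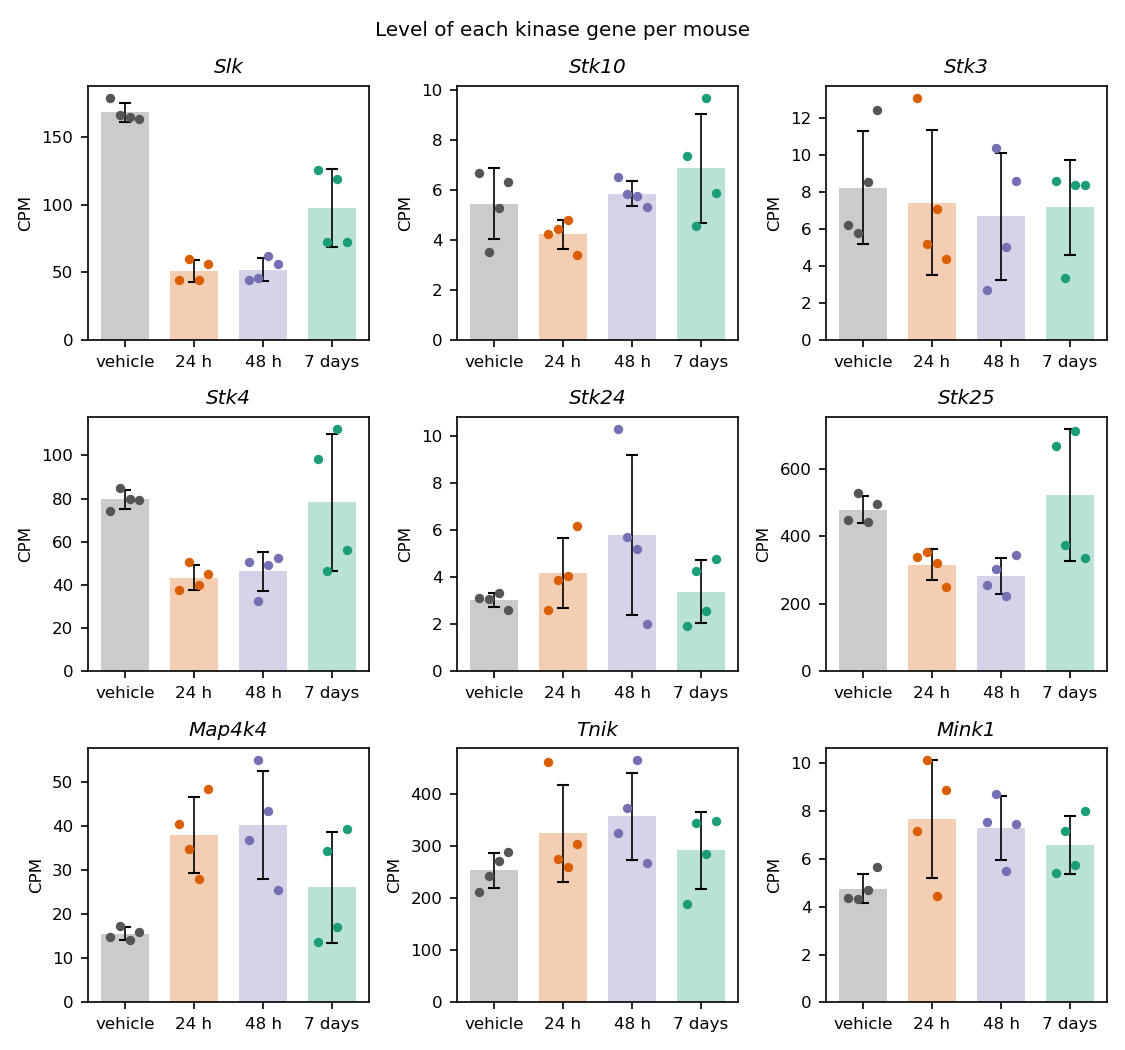
CPM of each of the 9 kinase genes (vertical axes, each from 0) in vehicle mice and at 24 h, 48 h and 7 days after DOI; points are mice, bars means and whiskers SD (n = 4). The Slk mice at 24 h and 48 h sit between 44.5 and 62.0 CPM and the vehicle mice between 163 and 178.3.

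Slk lies on chromosome 19 at 47579678 to 47645246 of GRCm38, on the plus strand, with 8356 bases of exon in 19 blocks. Its counts were 178.3, 165.7, 164.6 and 163.0 CPM in vehicle mice 1 to 4. At 24 h they were 44.6, 60.3, 44.5 and 56.2 CPM, and at 48 h 44.8, 45.7, 62.0 and 56.1 CPM. Every mouse of these DOI groups was below every vehicle mouse, at a mean of 30.6% and 31.1% of the vehicle mean. At 7 days the mice were at 125.6, 72.5, 119.1 and 72.3 CPM, a mean of 58.0% of vehicle. All 4 of these mice lay below all vehicle mice and above all mice of the 24 h and 48 h groups, and mice 1 and 3 were apart from mice 2 and 4. As log2 fold changes against vehicle these are -1.71 (SE 0.204) at 24 h, -1.69 (SE 0.204) at 48 h and -0.78 (SE 0.199) at 7 days.

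Among 9185 genes with an average log2 CPM of 4 or more as edgeR computes it, 83, 96 and 93 had a lower log2 fold change than Slk after 24 h, 48 h and 7 days. The SD of Slk over vehicle mice was 4.17% of its mean. The gene next after Slk in the ranking over the 4 groups was Tmem181b-ps, a pseudogene, with a vehicle mean of 304 CPM ± 33.2 and means of 999 ± 27.3, 1003 ± 96.2 and 489.6 ± 193.8 CPM after 24 h, 48 h and 7 days (SD, n = 4 each). The libraries of a mouse differed little for Slk: the higher was a median of 1.08 times and at most 1.27 times the lower, over 125 to 1069 counts per library. Genes AC125075.1 and Gm16068 lie within Slk on the other strand and share none of its exon bases. With the counts of each group pooled and scaled by total counts only, they were at 0.0 CPM and at 0.188 to 1.07 CPM.

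Stk10, the closest relative of Slk (chromosome 11, 32533305 to 32624587), had no difference past the threshold. Vehicle mice had 6.70, 3.52, 5.30 and 6.33 CPM, the 24 h mice 4.26, 4.46, 4.82 and 3.43 CPM, the 48 h mice 6.52, 5.86, 5.78 and 5.32 CPM, and the 7 days mice 7.37, 4.59, 9.69 and 5.88 CPM. The groups overlapped vehicle at every time. The log2 fold changes of Stk10 were -0.37 after 24 h (95% interval -1.04 to 0.31, edgeR adjusted p 0.42), 0.10 after 48 h (interval -0.57 to 0.77, adjusted p 0.833) and 0.33 after 7 days (interval -0.33 to 0.995, adjusted p 0.625). Stk10 had 8 to 59 counts per library, and its higher library was up to 2.61 times the lower.

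Across the 8 genes tested, 2 passed the threshold of an adjusted p of 0.05 at 24 h, 1 higher and 1 lower, and 3 at 48 h, 1 higher and 2 lower. The background was high: of all 17941 genes, 24.2% passed at 24 h (13.8% higher, 10.4% lower) and 30.1% at 48 h (16.8% higher, 13.3% lower). The 8 genes were thus called at 25.0% and 37.5%, near the share of all genes. Groups of mice did not overlap vehicle for 3 of the 8 genes at 24 h, beside 35.7% of all genes, and for 3 at 48 h, beside 38.1%. With 1 mouse left out, the calls over all genes fell from 4346 to as few as 2550 at 24 h (without 24 h mouse 4; 2576 and 2595 without vehicle mouse 1 or 2) and from 5395 to as few as 3514 at 48 h (without vehicle mouse 1; 3586 without vehicle mouse 2), while the count among the 8 genes was 2 in every such fit at 24 h and 1 to 4 at 48 h, with 1 without vehicle mouse 2. The median log2 fold change of the 8 genes was 0.10 at 24 h and 0.30 at 48 h, and over all genes 0.03 and 0.02.

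**Figure D2:**
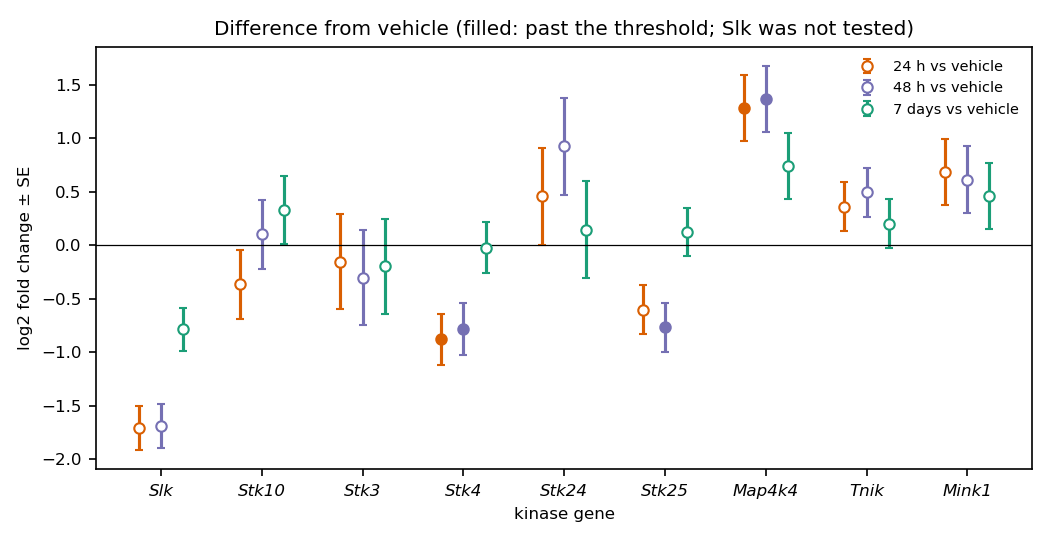
log2 fold change ± SE against vehicle (vertical axis) of the 9 genes (horizontal axis) at 24 h, 48 h and 7 days; filled points passed the adjusted p threshold, and Slk was not tested. Stk4, Stk25 and Map4k4 hold the filled points, Stk4 and Stk25 below 0 and Map4k4 above 0.

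Stk4, a core Hippo kinase (chromosome 2, 164070322 to 164155524), fell at both early times. Its levels were 74.4, 85.1, 80.0 and 79.2 CPM in vehicle mice. They were 37.8, 50.6, 39.8 and 45.2 CPM at 24 h and 50.7, 32.6, 49.4 and 52.4 CPM at 48 h, all below the vehicle mice. Against vehicle the 24 h log2 fold change of Stk4 was -0.88 (SE 0.241, edgeR adjusted p 0.0156). That of 48 h was -0.78 (SE 0.241, adjusted p 0.0218). Leaving out vehicle mouse 2 or 48 h mouse 2 raised the 48 h adjusted p to 0.0531 and 0.0715, and with library 2 alone of each mouse it was 0.0519 (log2 fold change -0.65). At 7 days the mice were at 98.1, 46.6, 112.2 and 56.2 CPM, with mice 1 and 3 above every vehicle mouse and mice 2 and 4 below, and the log2 fold change was -0.02 (adjusted p 0.970).

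Stk3, the other Hippo kinase (chromosome 15, 34875496 to 35178921), averaged 8.26 CPM ± 3.05 in the vehicle group and 7.45 ± 3.94, 6.70 ± 3.45 and 7.20 ± 2.56 after 24 h, 48 h and 7 days (SD, n = 4 each). Its groups overlapped throughout, and edgeR adjusted p-values against vehicle were 0.821, 0.63 and 0.852. The 24 h log2 fold change of -0.15 had a 95% interval from -1.08 to 0.77, which holds the value seen for Stk4.

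Stk25 (chromosome 1, 93619751 to 93658659) is a kinase of the Golgi that acts on neuronal polarity, and was the most abundant of the 9 per kilobase. Vehicle mice were at 448.4, 529.3, 442.7 and 495.6 CPM. The 24 h mice were at 340.0, 352.8, 321.4 and 249.1 CPM and the 48 h mice at 256.1, 303.3, 222.8 and 345.3 CPM, with no overlap with vehicle at either time. The fall passed the threshold at 48 h (log2 fold change -0.76, SE 0.229, edgeR adjusted p 0.0191) and did not at 24 h (-0.60, SE 0.228, adjusted p 0.061). It passed at 24 h under DESeq2 (adjusted p 0.0443), with no low-count filter (0.046), with the groups compared fitted alone (0.0108) and in a fit without the 7 days group (0.00993). Leaving out vehicle mouse 2 or 48 h mouse 3 raised the 48 h adjusted p to 0.0533 and 0.0624. At 7 days mice 1 and 3 had 668.2 and 711.5 CPM, above all vehicle mice, and mice 2 and 4 had 375.1 and 335.7 CPM, below them. Of Stk25's exon bases, 1371 (23.6%) are shared with genes of the other strand, 1013 with Farp2 and 358 with Gm28536. With the counts of each group pooled and scaled by total counts only, Farp2 itself was at 3.19 to 3.72 CPM.

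Stk24, its paralogue (chromosome 14, 121286343 to 121380011), was low, with 4 to 40 counts per library. Its vehicle mean was 3.04 CPM ± 0.298, and its means after 24 h, 48 h and 7 days were 4.17 ± 1.48, 5.79 ± 3.42 and 3.38 ± 1.34 (SD, n = 4 each). None of the differences from vehicle passed the threshold (edgeR adjusted p 0.478, 0.127 and 0.894), although leaving out 48 h mouse 4 gave 0.0462 at 48 h. The 48 h mice ranged from 1.99 to 10.3 CPM and overlapped all other groups.

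Map4k4 (chromosome 1, 39900913 to 40026310), a kinase of JNK signalling and cell motility, went the other way. Vehicle mice had 14.8, 17.4, 14.2 and 16.1 CPM. At 24 h the mice had 40.5, 35.0, 28.1 and 48.4 CPM and at 48 h 36.9, 55.1, 43.4 and 25.7 CPM, all above vehicle. Map4k4 rose 2.43-fold at 24 h (log2 fold change 1.28, SE 0.308, edgeR adjusted p 0.0082) and 2.57-fold in the 48 h mice (1.36, SE 0.309, adjusted p 0.00492). At 7 days mice 2 and 4 were at 34.4 and 39.5 CPM, mouse 1 was at 13.8 CPM, below the vehicle mice, and mouse 3 at 17.0 CPM, within them. The 7 days log2 fold change of 0.74 did not pass (adjusted p 0.230), and leaving out 7 days mouse 1 gave 0.96 (adjusted p 0.0499).

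Tnik and Mink1, the near relatives of Map4k4, were higher after DOI than in vehicle mice on average, but no difference passed the threshold. Tnik (chromosome 3, 28263214 to 28675858) averaged 253 CPM ± 33.6 in vehicle mice and 325 ± 92.8, 357 ± 83.5 and 292 ± 73.9 after 24 h, 48 h and 7 days (SD, n = 4 each), with log2 fold changes of 0.36, 0.50 and 0.20 (edgeR adjusted p 0.259, 0.105 and 0.680). With the 48 h and vehicle groups fitted alone, Tnik's adjusted p was 0.0305. Mink1 (chromosome 11, 70562881 to 70614483), which shares 220 exon bases (3.5%) with Gm12316 of the other strand, averaged 4.76 CPM ± 0.619 in vehicle mice and 7.65 ± 2.46, 7.29 ± 1.33 and 6.57 ± 1.21 in the DOI groups (SD, n = 4 each), with log2 fold changes of 0.68, 0.61 and 0.46 (adjusted p 0.112, 0.137 and 0.469). Tnik is measured well, at 887 to 1790 counts per library; Mink1 had 15 to 49.

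At 7 days none of the 8 genes passed against vehicle, beside 0.0% of all genes, and 1 of them, Map4k4, had an unadjusted p under 0.05 beside 3012 genes in all. DESeq2 also called none of the 8 genes, though it called 796 genes in all. The 8 genes had no group of 4 mice apart from vehicle at 7 days, beside 5.85% of all genes. Their median log2 fold change was 0.17 at 7 days, and over all genes 0.01.

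Between the DOI groups, 0 of the 8 genes passed at 48 h against 24 h (0.0% of all genes), 0 had an unadjusted p under 0.05, and DESeq2 called 0. Slk was at 1.01 times the 24 h mean at 48 h, and at 1.89 times at 7 days. Of the 8 genes, 0 passed at 7 days against 24 h (0.00557% of all genes) and 0 at 7 days against 48 h (0.0%), while 3 and 2 had an unadjusted p under 0.05, beside 2555 and 2959 of all genes, and DESeq2 called 1 in each, beside 393 and 432. Stk4 was higher at 7 days than at 24 h by a log2 fold change of 0.85 (SE 0.241, edgeR adjusted p 0.149), and Stk25 higher than at 48 h by 0.89 (SE 0.229, adjusted p 0.133). Neither passed, and the 7 days mice of each gene fell in 2 pairs.

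The same pairs of 7 days mice were seen in CT010467.1, an 18S ribosomal RNA pseudogene. Vehicle mice had 72.3 to 110.0 CPM, the 24 h mice 3258 to 15060 CPM and the 48 h mice 5107 to 16120 CPM. The 7 days mice 2 and 4 had 6171 and 4622 CPM, and mice 1 and 3 had 87.3 and 63.4 CPM. Mitochondrial genes took 0.017% to 0.07% of counts in vehicle mice, 0.062% to 0.101% in the 24 h mice and 0.108% to 0.268% in the 48 h mice. In the 7 days group they took 0.13% and 0.114% in mice 2 and 4 and 0.041% and 0.021% in mice 1 and 3; the part of that share in the results was not tested. Most genes split into these pairs: of all 17941, 65.1% had mice 2 and 4 both above (32.8%) or both below (32.3%) mice 1 and 3, and of those with an edgeR average log2 CPM of 4 or more, 70.7%. The 8 kinases other than Slk all split, as did Slk itself, which was chosen on these mice. Beside that share of all genes, nothing particular to them is read from the split. Slk, Stk4, Stk25, Stk10 and Stk3 were lower in mice 2 and 4, and Map4k4, Tnik, Mink1 and Stk24 were higher. Against the vehicle mean, Map4k4 was at 220% and 252% in mice 2 and 4 and at 88.3% and 109% in mice 1 and 3, and Stk4 was at 58.5% and 70.6% in mice 2 and 4 and at 123% and 141% in mice 1 and 3. Slk was at 43.2% and 43.1% in mice 2 and 4, and at 74.8% and 70.9% in mice 1 and 3, whose CT010467.1 was in or below the range of vehicle mice. In mice 1 and 3 Slk was at 125.6 and 119.1 CPM, below every vehicle mouse. As Slk was chosen on these mice, this is a description and no test of its relation to CT010467.1. Stk3 split by a narrow margin: its 7 days mouse 2 was at 40.7% of the vehicle mean, while mouse 4 was at 101.7%, beside 104.6% and 101.8% in mice 1 and 3.

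**Figure D3:**
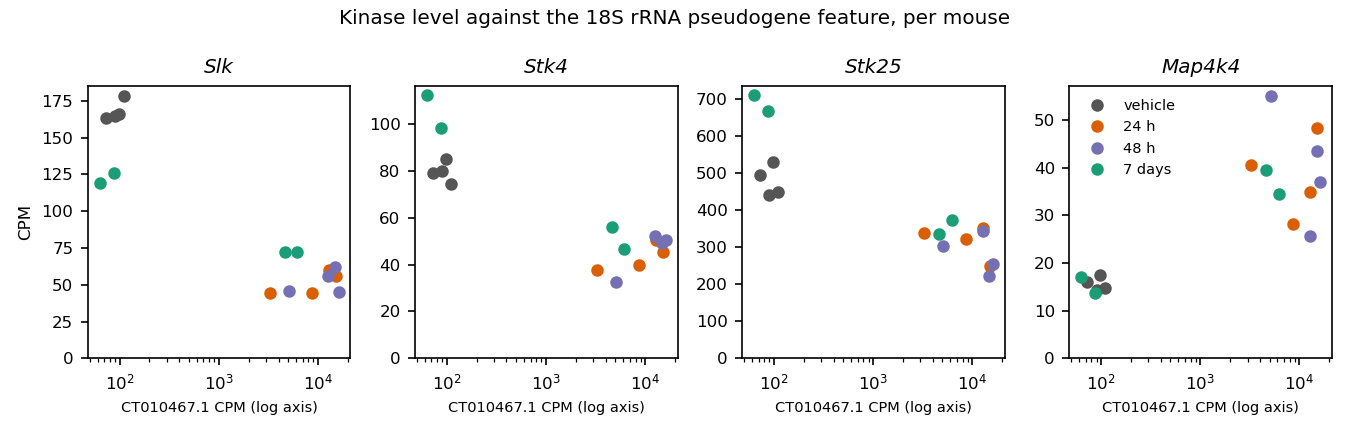
CPM of Slk, Stk4, Stk25 and Map4k4 (vertical axes from 0) against CPM of CT010467.1 (horizontal log axes), 1 point per mouse, coloured by group. The 7 days mice lie in 2 pairs, 1 at a CT010467.1 level of 63.4 and 87.3 CPM and 1 at 4622 and 6171 CPM.

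With the log2 CPM of CT010467.1 as a covariate, none of the 8 genes passed at 24 h or 48 h, and 0 of all genes did, beside 871 and 684 with an unadjusted p under 0.05. The log2 fold change of Slk was then -1.10 at 24 h and -1.05 at 48 h, that of Map4k4 was 0.23 and 0.27, and that of Stk4 was -0.02 and 0.12. All vehicle mice were low and all 24 h and 48 h mice high in this feature, so between those groups it and DOI cannot be told apart.

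Other genes of the pathway were followed in lists drawn up with earlier results of these data known. Of 21 other Ste20 kinases, 19 could be tested, and 3 rose and 5 fell at 24 h, 2 and 5 at 48 h and none at 7 days, with medians of -0.003 and -0.01 at the first 2 times. That is 42.1% and 36.8% called, beside 24.2% and 30.1% of all genes. The 24 h count of 8 was 3 without vehicle mouse 1 or 4 or 24 h mouse 1 or 4, 4 without vehicle mouse 2 or 3, and 5 with scaling by total counts only. In the values below, the first after vehicle is 24 h and the second 48 h. Map4k1, a kinase of immune cells, fell from 7.91 CPM ± 0.448 in vehicle mice to 2.60 ± 1.12 and 2.15 ± 1.77 (SD, n = 4 each; log2 fold changes -1.59 and -1.88, edgeR adjusted p 0.0467 and 0.0216); the 24 h call was kept in 1 of 8 fits with a mouse left out and lost with the replicate number as a block, with library 1 alone and with scaling by total counts only, and that of 48 h was lost without 48 h mouse 3 or 4 and with library 1 alone. Stk26, the third of the MST3 group, fell from 34.2 CPM ± 9.23 to 13.4 ± 4.27 and 12.4 ± 6.20 (SD, n = 4 each; adjusted p 0.014 and 0.00739). Taok2, linked to dendrite growth, rose from 38.5 CPM ± 3.91 to 64.4 ± 17.6 and 71.9 ± 5.44 (SD, n = 4 each; adjusted p 0.0127 and 0.00397). Oxsr1, a regulator of chloride transport, rose at 24 h (log2 fold change 1.15, SE 0.358, adjusted p 0.0279) and did not pass at 48 h (0.91, adjusted p 0.0611); its 24 h call was kept in 2 of 8 fits with a mouse left out.

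**Figure D4:**
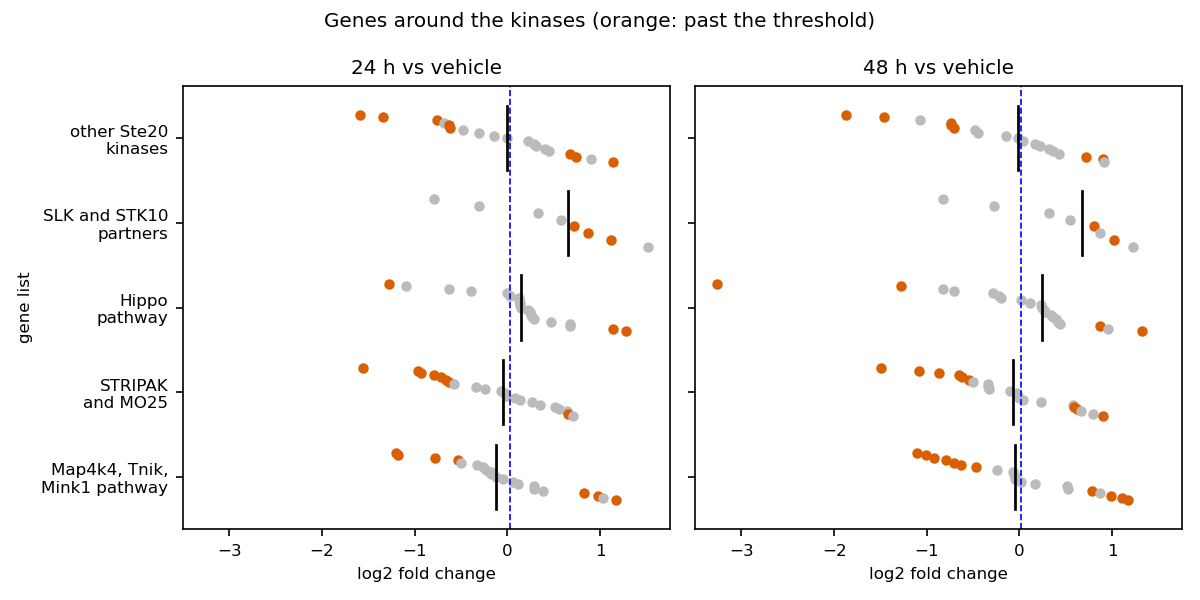
log2 fold change against vehicle (horizontal axes) of the genes of 5 lists (vertical axis) at 24 h and 48 h; orange points passed the threshold, black bars are list medians and the dashed line is the median over all genes. Each list but the SLK and STK10 partners has orange points on both sides of 0.

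Of 8 partners and substrates of SLK and STK10, 3 rose at 24 h and 2 at 48 h and none fell, with medians of 0.65 and 0.68. The shares called were 37.5% and 25.0%, beside 24.2% and 30.1% of all genes. The 48 h count of 2 was 1 with library 2 alone or with no low-count filter. The third call at 24 h, Ldb2 (adjusted p 0.0487 in edgeR), was lost under the replicate block and without 6 of the 8 mice in turn. Pxn, which encodes the focal adhesion protein paxillin, rose from 5.20 CPM ± 0.206 to 11.3 ± 3.07 and 10.6 ± 2.77 (SD, n = 4 each; edgeR adjusted p 0.0104 and 0.0131); neither call was kept with no low-count filter, and that of 48 h was also lost with library 2 alone. Dctn1, a subunit of the dynein adaptor dynactin, went from 44.6 CPM ± 2.22 to 81.8 ± 21.2 and 77.9 ± 6.99 (SD, n = 4 each; adjusted p 0.0071 and 0.00861). Ezr and Msn, which encode the substrates ezrin and moesin, were low in vehicle mice (0.764 and 3.95 CPM) and did not pass. Rdx, for the third substrate, radixin, averaged 37.7 CPM ± 4.48 in vehicle mice and 56.2 ± 8.30 at 24 h (SD, n = 4 each), with no overlap, but did not pass either (log2 fold change 0.58, edgeR adjusted p 0.0665).

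Of 25 Hippo pathway genes, 21 were tested, and 2 rose and 1 fell at 24 h, and 2 rose and 2 fell at 48 h. These are 14.3% and 19.0% of the genes tested, below the 24.2% and 30.1% of all genes. The 48 h count of 4 was 1 with library 1 alone and 2 without 48 h mouse 2 or with no low-count filter. Nf2, which encodes the upstream scaffold merlin, rose from 9.06 CPM ± 0.552 to 19.9 ± 2.45 and 16.6 ± 3.87 (SD, n = 4 each; edgeR adjusted p 0.00651 and 0.0191; not past at 48 h without 48 h mouse 2 or 4, with library 1 alone or with no low-count filter). Yap1, the coactivator that Hippo kinases restrain, rose at both times from a low 2.60 CPM ± 1.02 (log2 fold changes 1.28 and 1.33, adjusted p 0.0492 and 0.0371), but each of these calls was kept in 2 of 8 fits with a mouse left out and in neither library alone, both were lost with no low-count filter, and that of 24 h was lost under the replicate block. Wwtr1, which encodes TAZ, the relative of YAP1, fell at 48 h from 3.00 CPM ± 2.29 to 0.307 ± 0.285 (SD, n = 4 each; adjusted p 0.0129); its mice overlapped vehicle, and the 48 h mean lies under 3 counts per mouse, which are 0.408 to 0.514 CPM there. Vgll4, a competitor of YAP1 for TEAD factors, fell from 37.8 CPM ± 7.48 to 15.5 ± 3.59 and 15.6 ± 7.92 (SD, n = 4 each; adjusted p 0.0121 and 0.00997).

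Of 22 STRIPAK and MO25 genes, 1 rose and 7 fell at 24 h, and 3 rose and 6 fell at 48 h, with medians of -0.05 and -0.07. The shares called were 36.4% and 40.9%, beside 24.2% and 30.1% of all genes. Leaving out a mouse gave 4 to 6 calls in place of 8 at 24 h and 3 to 6 in place of 9 at 48 h, both lowest without vehicle mouse 2. Ppp2ca, a catalytic subunit of phosphatase 2A, went from 433.6 CPM ± 23.3 to 147 ± 37.3 and 154 ± 27.7 (SD, n = 4 each, edgeR adjusted p 0.00176 and 0.00158). Ppp2cb, for another catalytic subunit, did not pass (log2 fold changes -0.245 and -0.099, edgeR adjusted p 0.485 and 0.784). Strn4, a striatin that holds the complex together, fell from 279 CPM ± 10.0 to 143 ± 29.4 and 153 ± 45.7 (SD, n = 4 each; adjusted p 0.0191 and 0.0256); leaving out vehicle mouse 2 or 48 h mouse 1, 2 or 3 ended its 48 h call, and 24 h mouse 1 that of 24 h. Stk38, a kinase downstream of Hippo and MST signalling, rose with log2 fold changes of 0.65 and 0.62 (adjusted p 0.0422 and 0.0442). Both calls of Stk38 were lost under the replicate block, with no low-count filter and in 7 of 8 fits with a mouse left out, and that of 24 h also with library 2 alone. Stk38l of the same list fell at 24 h (log2 fold change -0.935, edgeR adjusted p 0.0121), a call kept in 8 of 8 fits with a mouse left out. It did not pass at 48 h (-0.496, adjusted p 0.123).

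Of 23 genes around Map4k4, Tnik and Mink1, 21 were tested, with 3 rising and 4 falling at 24 h and 4 rising and 7 falling at 48 h. These are 33.3% and 52.4% of the genes tested, beside 24.2% and 30.1% of all genes. With a mouse left out the counts were 4 to 6 in place of 7 at 24 h, lowest without vehicle mouse 1, and 6 to 10 in place of 11 at 48 h, lowest without vehicle mouse 1, 48 h mouse 2 or 48 h mouse 3. Among those above and beside JNK, Map3k7 (TAK1) rose from 22.6 CPM ± 6.38 to 44.6 ± 4.48 and 48.8 ± 8.41 (SD, n = 4 each; edgeR adjusted p 0.019 and 0.00855; not past at 24 h without vehicle mouse 1), while Map3k12 (DLK), a kinase of axon injury signalling, fell from 220.7 CPM ± 15.4 to 96.3 ± 24.1 and 109.9 ± 13.2 (SD, n = 4 each; adjusted p 0.00817 and 0.0149). Rap2b, a small GTPase upstream of Tnik, rose (log2 fold changes 1.17 and 0.99, adjusted p 0.0082 and 0.0149; not past at 48 h with library 1 alone). The adaptor Nck2, of a family that binds these kinases, fell (-1.18 and -1.11, adjusted p 0.0113 and 0.0119). No gene of any of the 5 lists passed at 7 days. Without 7 days mouse 1, when 1342 of all genes passed, 3 genes of this list, 3 STRIPAK and MO25 genes, 1 Hippo gene and 1 other Ste20 kinase did, and without mouse 3 (1160 of all genes) 1 of this list and 1 of STRIPAK and MO25. DESeq2, which called 796 of all genes, called 1 of this list.

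Over the 16 mice, 8954 other genes whose log2 CPM values had a plain mean of 4 or more, where edgeR's average was used above, were compared with Slk by Pearson correlation of log2 CPM, a description that follows the group levels and has no p. Closest were Rab5a (r = 0.954), Tmed2 (0.953), Cmas (0.952), Shoc2 (0.951) and Srpr (0.951), and farthest were Tmem181b-ps (-0.969), Ric1 (-0.969) and Kndc1 (-0.968). Rab5a, a GTPase of early endosomes, averaged 87.1 CPM in vehicle mice and 17.8, 18.2 and 47.0 CPM in the DOI groups by time. Kndc1, a guanine exchange factor of dendrites, went from 17.6 CPM to 75.4, 71.9 and 34.7. Over 0.9 lay 149 genes (1.66%) and under -0.9 lay 257 (2.87%). Of the other kinases, Stk4 had r = 0.87 with Slk, a value that 3.89% of the compared genes reached, Stk25 had 0.761 (reached by 15.3%) and Map4k4 -0.875 (4.47% were as low). Stk10, the closest relative, had 0.277, Stk3 0.209, Stk24 -0.509, Tnik -0.595 and Mink1 -0.646.

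The libraries of the same mouse agreed for the abundant genes, and differed more for the rare ones. The median ratio of the higher to the lower library was 1.03 for Stk25, 1.05 for Tnik and 1.06 for Stk4, and 1.24 for Stk3, 1.25 for Stk10, 1.24 for Stk24 and 1.301 for Mink1.

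**Figure D5:**
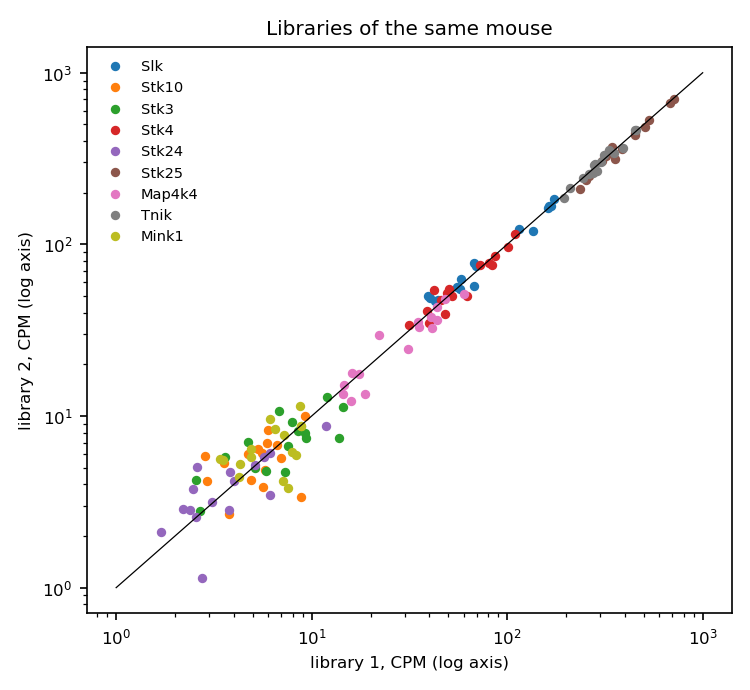
CPM of the 9 genes in library 2 against library 1 of the same mouse (both axes log), 16 mice per gene; the line marks equal values. Points of genes under about 10 CPM scatter more about the line than those of Slk, Stk4, Stk25 and Tnik.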

How the data were processed

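Each deposited file holds raw counts, 1 per gene ID, which the authors made with featureCounts 2.0.0 (per the file headers) over exons of Ensembl gene IDs (GRCm38) with default options, hence without strand, multi-mapping or overlapping reads. SMART-seq2 cDNA and Nextera XT libraries were made per the labels' protocols. The submitters' processing notes name Trim Galore 0.6.5, Bowtie2 2.4.1 and mm10 with no role; the RNA aligner is not given in the sources used here. The H3K27ac samples were not analysed here. In the file headers 3 mice carry number 6; the labels' numbers were used.

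Both libraries of each mouse were added up. edgeR 4.0.16 (R 4.3.3, filterByExpr, TMM, quasi-likelihood test, Benjamini-Hochberg adjustment over 17941 genes, threshold 0.05) was fitted once over the 4 groups of 4 mice, for all 6 contrasts between groups, and was checked on simulated counts. SEs come from the fold change and its F statistic. CPM uses TMM factors, log2 CPM a prior count of 2, and CPM per kb the exon length of the headers. Pooled values of genes that overlap a kinase were scaled by total counts only. The depth, 5834248 to 12354785 counts per mouse, puts 3 counts at 0.243 to 0.514 CPM; such floors cover counting error only, since reads carry no molecular identifiers.

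The members and lists were chosen with earlier results of these data known. Named were all 9 kinases, genes sharing exon bases with them, in each list up to 2 genes per direction with the largest 24 h change among called genes averaging a log2 CPM of 2 or more, the 5 genes most and 3 least correlated with Slk, and CT010467.1. Ezr, Msn, Rdx, Ldb2, Wwtr1, Stk38l, Ppp2cb and the genes within Slk were added after their values were seen. Alternatives were DESeq2 1.42.0, other scaling and filters, each library alone, a CT010467.1 covariate, a replicate block, only the groups compared, each mouse left out and, added after seeing the data, a fit without the 7 days group. No protein sequences were used here.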

Additional observations from a re-analysis of the deposited data

Results flagged for a closer look

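Of 36 sets of 4 mice (9 genes in 4 groups), 2 held a mouse far from the other 3, and chance flags about 1 set in 20. Stk3 was at 3.36 CPM in 7 days mouse 2, and the nearest other mouse of the group was at 8.40 CPM. Stk4 was at 32.6 CPM in 48 h mouse 2, and the nearest was at 49.4 CPM.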

How the results depend on the processing

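With the CT010467.1 covariate, the number of the 8 tested kinases past the threshold was 0 at 24 h, against 2, and 0 at 48 h, against 3; Stk4 and Stk25 at 48 h then had log2 fold changes of 0.12 and 0.27, against -0.78 and -0.76. At 7 days against 24 h, DESeq2 and the fit with no low-count filter each called 1 kinase, against 0 (393 and 504 of all genes, against 1), and at 7 days against 48 h they called 1 and 2, against 0 (432 and 665 of all genes, against 0). Leaving out each mouse in turn against vehicle gave 2 kinases in each fit for 24 h, 1 to 4 for 48 h and 0 to 1 for 7 days, then 0 in each fit at 48 h against 24 h, and 0 to 2 at 7 days against 24 h and against 48 h. The lowest count, 1 at 48 h, came without vehicle mouse 2. At 7 days against vehicle the count of 1 came without mouse 1, when 1342 of all genes passed; 1160 passed without mouse 3. Without mouse 4 the 7 days against 24 h count was 2 (308 of all genes), and without mouse 2 the 7 days against 48 h count was 2 (394 of all genes). Slk kept its direction against vehicle at all 3 times under every setting run. This is no test of Slk, which was chosen for its small p in these same mice. Of the tested kinases' log2 fold changes, 860 of 888 values under other settings kept their direction where called and their side of the threshold. Most of these belong to differences not called in the main fit, so the count says little on how the calls hold. An uncalled value could change sign and still count as kept, as Stk4 at 7 days against vehicle did in 7 of 18 settings. The fit without the 7 days group called 3 kinases at 24 h and 3 at 48 h, and 5945 and 6767 genes in all. The cause of these changes was not tested. By the labels' numbers, same-numbered mice of different groups did not deviate together (mean r -0.036, from -0.282 to 0.244, over 0.1 in 6 of 24 pairs). With the replicate block, also by the labels' numbers, 2, 3 and 0 kinases passed at 24 h, 48 h and 7 days. The block gave 3667, 4664 and 0 genes in all, against 4346, 5395 and 0, and 4 of 16 mice correlated best with a mouse of their own number. With library 1 or library 2 alone, 2 kinases passed at 24 h in each, and 3 and 2 at 48 h. Stk3, Stk10, Stk24 and Mink1 had 4 to 68 counts per library.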
